A study of Canis lupus familiaris with 18 samples.

Results

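*E2F1* peaks were set against *H3K27ac* peaks from the pons of the same 6 dogs, to describe where *E2F1* sits relative to acetylated chromatin. Of the 18 samples of the series, 12 were used, namely the 6 *E2F1* and the 6 *H3K27ac* immunoprecipitations (*ChIP-seq*), paired by the animal number in the sample labels. The 6 input libraries were not analysed here. The groups differ in a transposable element (TE) insertion at *GTF2I*, present in the ancestral allele and absent from the derived one. Ancestral dogs 1 to 3 carried both alleles (heterozygous), and derived dogs 1 to 3 only the derived allele (homozygous). All 6 were male pet dogs between 12 and 16 years old, mostly of mixed breed, so genotype was not isolated from the remaining genetic background, and no ancestral dog carried the insertion on both alleles. The pons, a part of the brainstem, was assayed in bulk, so more cells of a type and more signal per cell cannot be told apart.

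*E2F1* is a transcription factor of the E2F family, known for binding the promoters of genes for DNA synthesis and cell division and for being held in check by the retinoblastoma protein in resting cells. Acetylation of histone H3 at lysine 27 (*H3K27ac*) marks active promoters and enhancers, and broad acetylated stretches often cover clusters of enhancers. A *ChIP-seq* peak is a stretch where sequenced fragments pile up above the local background, and its summit is the base with the highest pile-up.

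On the 38 autosomes, the lists held 86634, 84014 and 130535 *E2F1* peaks (ancestral dogs 1, 2 and 3) and 107268, 160157 and 115998 (derived dogs 1, 2 and 3). *H3K27ac* peaks numbered 138141, 98700 and 100292 (ancestral) and 118156, 96561 and 113447 (derived). The order of the dogs differed between the marks, and derived dog 2 had the most *E2F1* and the fewest *H3K27ac* peaks. *H3K27ac* peaks were several times wider than *E2F1* peaks, with median widths per dog from 1173 to 1386 bp against 229 to 286 bp. They covered 13.5%, 9.81% and 10.5% of the autosome span (ancestral dogs 1, 2 and 3) and 11.7%, 11.5% and 12.1% (derived dogs 1, 2 and 3). *E2F1* peaks were listed down to a −log10 q of 1.30. Only 18947 to 63306 per dog had a q below 0.0005, the *E2F1* threshold in the methods of the study, so most *E2F1* peaks behind the values below are weaker than that. The authors report more noise than usual in their *E2F1* data and chose a strict threshold to make up for it. They also caution that some binding sites may be missed. The lists hold no read depth, and none was used here.

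Between 25.8% and 40.6% of the *E2F1* summits of a dog fell inside an *H3K27ac* peak of the same dog, which was more than the share of the genome that those peaks covered in every dog. The share inside was 36.2%, 35.3% and 33.5% (ancestral dogs 1, 2 and 3) and 25.8%, 40.6% and 28.9% (derived dogs 1, 2 and 3). Divided by the covered share, which is what even placement along the autosomes would give, this was a ratio of 2.67, 3.60 and 3.18 (ancestral) and 2.21, 3.54 and 2.39 (derived). The ranges of the genotypes overlapped, with derived dog 1 lowest and ancestral dog 2 highest. The log2 ratio was 1.53 ± 0.30 (SD, n = 6) and above 0 in 6 of 6 dogs (two-sided exact sign-flip permutation test over dogs, p = 0.03125, which is the smallest that 6 dogs allow; Benjamini-Hochberg adjusted p = 0.0402 over 9 tests). At stricter thresholds, with *E2F1* peaks at q below 1e-10 and *H3K27ac* peaks at q below 1e-05, it was 2.39 in the mean, with the same p and an adjusted p of 0.0562 in the exact test. With any dog left out, the results past the test kept their direction, but 5 dogs cannot give a p below 0.0625 in the exact test.

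Seen from the *H3K27ac* side, most peaks held no summit. The share with at least 1 was 16.4%, 20.8% and 26.4% (ancestral dogs 1, 2 and 3) and 17.6%, 34.0% and 20.5% (derived dogs 1, 2 and 3). It was highest in the dogs with the longest *E2F1* lists, derived dog 2 and ancestral dog 3. Peaks with 5 or more summits made up 2.45% in derived dog 2, 1.06% in ancestral dog 3 and between 0.240% and 0.470% in the other 4 dogs, and the fullest single peak of a dog held between 16 and 45.

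Within *H3K27ac* peaks, *E2F1* summits lay almost evenly between centre and edge. The central part of a peak was taken as the 50% of its width around the centre, where even placement puts 50% of summits. It held 50.5%, 52.9% and 52.6% (ancestral dogs 1, 2 and 3) and 50.0%, 51.4% and 50.2% (derived dogs 1, 2 and 3). The excess over even placement was 1.27 ± 1.26 percentage points (SD, n = 6) and positive in 5 of 6 dogs (two-sided exact sign-flip permutation test, p = 0.0625, adjusted p = 0.0703 over 9 tests). Split from centre to edge, the innermost 10% of the width held 10.5% ± 0.371 and the outermost 10% 9.75% ± 0.623 of inside summits (SD, n = 6). Inside summits had a median distance to the nearest edge of 852 to 1248 bp per dog. With the thresholds in the methods of the study, q below 0.0005 for *E2F1* and 0.05 for *H3K27ac*, the excess was 3.18 percentage points and passed the exact test (adjusted p = 0.0469), as it did with equal list sizes (2.01) and with peak midpoints (1.29). At the stricter thresholds it was 8.92 percentage points, positive in 6 dogs (exact test, adjusted p = 0.0562).

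The strength of the *E2F1* peak went with this position. Among inside summits of peaks with a −log10 q under 2, the weakest class, the central part held 49.4% ± 0.581 (SD, n = 6). It held 51.5% ± 0.999 (SD, n = 6) at 3 to 5, 53.8% ± 1.44 (SD, n = 6) at 5 to 10 and 58.6% ± 2.72 (SD, n = 6) at 10 to 50. In each of the 6 dogs the central part share was higher at 10 to 50 than under 2, from 54.2% in derived dog 1 to 61.5% in ancestral dog 3. The few peaks at 50 or more broke this order, with 50.9% ± 8.59 (SD, n = 6) in the central part and 34.3% in derived dog 1. They numbered between 80 and 211 per dog, inside and outside together. Only the 33.1% to 48.75% of them that were inside enter these shares, which in derived dog 1 was 35.7% of 98 peaks. These classes were formed after the values were seen and were not tested.

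Summit density changed in 2 ways at the edges of *H3K27ac* peaks, with a step at the edge itself and a slow fall beyond it. In the 250 bp just inside an edge there were 99.5, 117 and 158 summits per Mb (ancestral dogs 1, 2 and 3) and 116, 237 and 123 (derived dogs 1, 2 and 3). In the 250 bp just outside there were 64.8, 92 and 130 per Mb (ancestral) and 76.6, 154 and 92.1 (derived). The inside window was denser in every dog. The log2 ratio of the 2 windows was 0.48 ± 0.15 (SD, n = 6), positive in 6 of 6 dogs (two-sided exact sign-flip permutation test, p = 0.03125, adjusted p = 0.0402). This step changed with the thresholds. At the thresholds of the study it was 0.32, positive in 5 dogs (exact test, adjusted p = 0.0703), and at the stricter thresholds it turned to -0.14, positive in 2 dogs (exact test, adjusted p = 0.688). Derived dog 1, with 747 *E2F1* peaks left, then had 1.49, and the other 5 dogs lay between -0.83 and 0.10.

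Outside the peaks, summits were denser near an edge than far from any *H3K27ac* peak. At 250 to 1000 bp from an edge there were 49.7, 58.2 and 95.1 summits per Mb (ancestral dogs 1, 2 and 3) and 59.9, 111 and 75.0 (derived dogs 1, 2 and 3). At 10 kb or more from any *H3K27ac* peak there were 18.3, 17.7 and 28.1 per Mb (ancestral) and 31.4, 27.8 and 29.7 (derived). The near flank was denser in all 6 dogs, and derived dog 1 had both the highest far density and the smallest ratio. The log2 ratio was 1.53 ± 0.38 (SD, n = 6) (two-sided exact sign-flip permutation test, p = 0.03125, adjusted p = 0.0402). At the stricter thresholds its mean was 3.65, with an adjusted p of 0.0562 in the exact test.

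Relative to the mean density of each dog, the profile fell below 1 at 2.5 to 5 kb outside an edge in 5 of 6 dogs and at 5 to 10 kb in derived dog 1. It was 1.95 ± 0.339 within 250 bp outside, 1.13 ± 0.0611 at 1 to 2.5 kb and 0.941 ± 0.0602 at 2.5 to 5 kb (SD, n = 6). Beyond 50 kb it was 0.351 ± 0.0821, while 2.5 kb or more inside an edge, a depth that only peaks of at least 5 kb have, it was 3.45 ± 0.763 (SD, n = 6). The lowest density inside peaks was at 250 to 500 bp from the edge in 5 of 6 dogs, and in ancestral dog 2 at the edge itself. Of the summits outside, 48.9% ± 3.79 lay within 5 kb of an edge, where 30.3% ± 3.54 of the outside bases lie (SD, n = 6). A further 12.6% ± 1.74 of outside summits lay 50 kb or more away. *E2F1* peaks that crossed an edge made up 7.45% ± 1.48 of the lists (SD, n = 6).

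**Figure D1:**
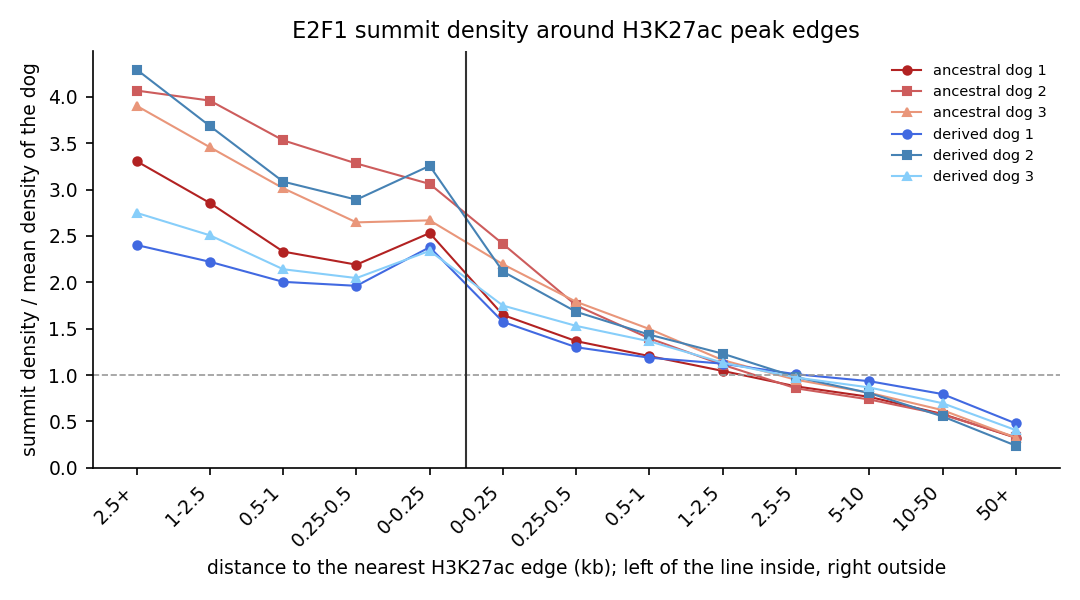
*E2F1* summit density, as a ratio to the mean density of the dog, by distance in kb to the nearest *H3K27ac* edge, inside peaks to the left of the vertical line and outside to the right, with 1 line per dog and the dashed line at the mean density. In each dog the density steps down at the edge and falls with distance, to a mean of 0.351 beyond 50 kb.

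Wide *H3K27ac* peaks were denser in *E2F1* summits than narrow ones, by less than the difference between inside and outside. Peaks of 5 kb or more held 121, 148 and 214 summits per Mb (ancestral dogs 1, 2 and 3) and 112, 292 and 137 (derived dogs 1, 2 and 3). Peaks under 1 kb held 92, 117 and 151 per Mb (ancestral) and 112, 215 and 121 (derived). In derived dog 1 the values were nearly equal, and in the other 5 dogs the wide peaks were denser. The log2 ratio was 0.31 ± 0.19 (SD, n = 6) and ran from 0.0016 in derived dog 1 to 0.50 in ancestral dog 3 (two-sided exact sign-flip permutation test, p = 0.03125, adjusted p = 0.0402). Against the narrowest 20% of peaks, the widest 20% gave 0.22, positive in 5 dogs (exact test, adjusted p = 0.105). With equal numbers of peaks per list it was 0.30 (exact test, adjusted p = 0.0703), and at the stricter thresholds it reversed to -1.31, positive in 1 dog (exact test, adjusted p = 0.121), with -3.69 in derived dog 1 and -1.83 to 0.08 in the other 5.

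Across the width classes the density had its minimum in the middle. As a ratio to the mean density of the dog it was 2.67 ± 0.241 under 0.5 kb, 2.46 ± 0.498 at 1 to 2 kb and 3.41 ± 0.733 at 10 kb or more (SD, n = 6). In 4 of 6 dogs the class of 1 to 2 kb was the lowest. The exceptions were ancestral dog 2, lowest under 0.5 kb, and ancestral dog 3, lowest at 0.5 to 1 kb. The share of peaks with at least 1 summit, which grows with the number of bases in a peak, rose in every dog with each step in width, from 5.00% ± 1.60 under 0.5 kb to 17.0% ± 5.58 at 1 to 2 kb and 86.0% ± 6.7 at 10 kb or more (SD, n = 6). Peaks of 10 kb or more were 3.0% ± 0.507 of the *H3K27ac* peaks and 22.1% ± 2.43 of their bases, and held 25.7% ± 3.81 of inside summits (SD, n = 6).

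**Figure D2:**
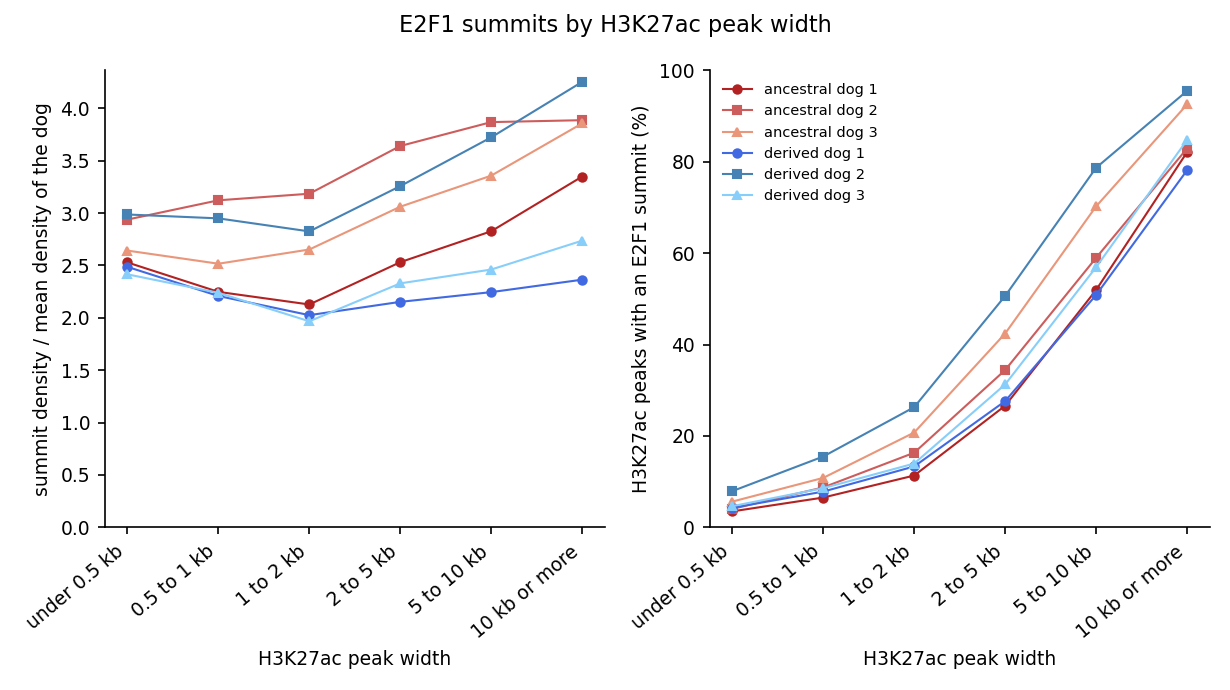
*E2F1* summits by width class of the *H3K27ac* peak, with 1 line per dog. On the left is the summit density as a ratio to the mean density of the dog, lowest at 1 to 2 kb in 4 of 6 dogs, and on the right the percentage of peaks with at least 1 summit, rising to a mean of 86.0% at 10 kb or more.

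Where a summit lay within its peak also changed with width. In peaks under 0.5 kb the central part held 53.9% ± 2.41 of summits (SD, n = 6). In peaks of 0.5 to 1 kb it held 47.5% ± 2.22 and in peaks of 1 to 2 kb 48.2% ± 3.26 (SD, n = 6). In these 2 classes the summits leaned to the edges in most dogs, with ancestral dog 2 above 50% in both and ancestral dog 3 in the second. In peaks of 2 to 5 kb the share was 52.2% ± 1.60, and at 10 kb or more 51.5% ± 0.602 (SD, n = 6). Every dog was above 50% in the classes from 2 kb up.

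*H3K27ac* strength went with *E2F1* as well. With peaks of each dog ordered by q value, summit density relative to the mean of the dog was 1.77 ± 0.239 in the weakest 10% and 3.92 ± 0.947 in the strongest 10% (SD, n = 6). Strong peaks were also wide, with a mean over dogs of the median width of 738 bp in the weakest 10% and 3780 bp in the strongest. Within the class of 1 to 2 kb, the median fold enrichment of peaks with an *E2F1* summit was 3.0, 3.67 and 3.46 (ancestral dogs 1, 2 and 3) and 3.11, 3.23 and 3.06 (derived dogs 1, 2 and 3). Peaks of this class without a summit had medians of 2.76, 3.0 and 2.89 (ancestral) and 2.90, 2.81 and 2.81 (derived). Peaks with a summit were stronger in 6 of 6 dogs, by 0.18 ± 0.08 on the log2 scale (SD, n = 6; two-sided exact sign-flip permutation test, p = 0.03125, adjusted p = 0.0402). They were also wider within the class, with medians of 1475 ± 11.1 bp against 1362 ± 6.22 bp (SD, n = 6), and the part of this width in the difference was not tested. At the thresholds of the study the difference was 0.28 (exact test, adjusted p = 0.0469), and at the stricter ones 0.43 (exact test, adjusted p = 0.0562).

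*E2F1* peaks inside *H3K27ac* were slightly stronger and wider than those outside. The median fold enrichment inside was 4.34, 4.39 and 4.28 (ancestral dogs 1, 2 and 3) and 3.95, 4.08 and 4.07 (derived dogs 1, 2 and 3). Outside it was 4.14, 4.17 and 3.94 (ancestral) and 3.88, 3.89 and 3.97 (derived). The inside median was higher in each dog, by a small margin. The log2 difference was 0.0654 ± 0.0337 (SD, n = 6; two-sided exact sign-flip permutation test, p = 0.03125, adjusted p = 0.0402). It did not pass the test at the thresholds of the study, where it was 0.0247 (exact test, adjusted p = 0.0703), nor with equal numbers of peaks or without the pairing by dog. Nor did it at the stricter thresholds (0.0453, exact test, adjusted p = 0.0938), with 0.198 in derived dog 1 and at most 0.0311 in the other dogs.

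The median width of *E2F1* peaks inside was 300, 311 and 263 bp (ancestral dogs 1, 2 and 3) and 237, 288 and 242 bp (derived dogs 1, 2 and 3). Outside it was 280, 272 and 229 bp (ancestral) and 227, 242 and 230 bp (derived). The log2 difference of 0.15 ± 0.08 (SD, n = 6) had the same sign in 6 of 6 dogs (two-sided exact sign-flip permutation test, p = 0.03125, adjusted p = 0.0402). At the thresholds of the study it was 0.23 (exact test, adjusted p = 0.0469), and at the stricter ones 0.39 (exact test, adjusted p = 0.0562). Without the pairing by dog, p was 0.121 in the exact permutation test. Widths differed between the lists, and the smallest *E2F1* peak was 217 and 199 bp wide in ancestral dogs 1 and 2, and between 151 and 169 bp in the other dogs. Of *E2F1* peaks between 500 bp and 1 kb wide, 50.9% ± 8.34 had their summit inside *H3K27ac*, against 29.8% ± 3.72 of those between 200 and 300 bp (SD, n = 6). At 1 kb or more it was 53.5% to 72.2% in 5 dogs and 29.0% in derived dog 1, below the 36.1% of this dog at 500 bp to 1 kb.

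Stronger *E2F1* peaks were more often inside across the weaker classes. The share inside was 27% ± 3.46 at a −log10 q under 2 and 41.9% ± 8.48 at 5 to 10 (SD, n = 6). At 10 to 50 it was 46.8%, 47.5% and 52.6% (ancestral dogs 1, 2 and 3) and 20.2%, 66.6% and 35.9% (derived dogs 1, 2 and 3). Derived dog 1 thus went against the other 5 dogs, with a lower share in this class than in its weakest class of 23.0%. It also had the fewest peaks there, 649 against 1381 to 6435 in the other dogs. At 50 or more the share was 40.6% ± 5.75 (SD, n = 6), higher than at 10 to 50 in 3 dogs and lower in the other 3.

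*E2F1* peaks present in several dogs were more often inside *H3K27ac* than peaks of 1 dog. Peaks that overlapped no *E2F1* peak of another dog were 59.7% ± 4.85 of a list, and 25.1% ± 4.14 of them had their summit inside (SD, n = 6). The share inside was 37.5% ± 5.83 for peaks found in 2 dogs, 49.0% ± 6.65 in 3 and 58.3% ± 5.78 in 5 (SD, n = 6). In all 6 dogs it was 55.8% ± 5.55, and such peaks numbered from 3320 to 3661 per dog (SD, n = 6). The summits also lay closer to the centre of the *H3K27ac* peak with more dogs, the central part holding 48.8% ± 0.955 of inside summits for peaks of 1 dog and 58.3% ± 2.57 for peaks of 6 (SD, n = 6). Peaks of 6 dogs were stronger, with a mean over dogs of the median −log10 q of 7.41 against 2.54 for peaks of 1 dog. The dogs share these peaks, and the classes were chosen after seeing the data, so they were described and not tested.

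*H3K27ac* regions present in more dogs were denser in *E2F1* summits. Merging overlapping peaks gave 175786 regions, of which 65143 had a peak in 1 dog and 47985 in all 6. Summit density relative to the mean of the dog was 1.47 ± 0.188 in regions of 1 dog and 2.71 ± 0.425 in regions of all 6 (SD, n = 6). An *E2F1* summit of at least 1 dog lay in 24.1% of the former and in 83.3% of the latter, whose median widths were 519 and 4118 bp. Summits of all 6 dogs lay in 11.4% of the regions shared by 6 dogs.

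No advantage of the own *H3K27ac* list over the lists of other dogs was detected for the *E2F1* summits of a dog. The log2 ratio to the covered share in the own list minus the mean over the lists of the 5 other dogs was -0.04, 0.08 and 0.13 (ancestral dogs 1, 2 and 3) and 0.03, 0.24 and -0.08 (derived dogs 1, 2 and 3). These values lay on both sides of 0, and the mean of 0.06 ± 0.12 (SD, n = 6) was within the spread between dogs (two-sided exact sign-flip permutation test, p = 0.3125, adjusted p = 0.3125). The list of derived dog 2 gave the highest ratio for the summits of each of the 6 dogs, its own included. By rho over 1-Mb bins the highest value was instead with the list of ancestral dog 1 for each of the 6 dogs, and the own list exceeded between 0 and 5 of the 5 others. With the list of derived dog 2, the summits of the other dogs had a mean ratio of 2.98, and with that of ancestral dog 2 they had 2.61.

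No difference between the genotypes was detected in these positions, in a design of 3 dogs against 3 that cannot give a p below 0.1. The log2 ratio to the covered share was 1.65 ± 0.22 in ancestral and 1.41 ± 0.36 in derived dogs (SD, n = 3), a difference of -0.24, derived minus ancestral (exact two-sided permutation test, p = 0.3). The excess in the central part was 2.02 ± 1.31 percentage points in ancestral and 0.517 ± 0.751 in derived dogs (SD, n = 3; exact two-sided permutation test, p = 0.2). For wide against narrow peaks, the log2 ratio was 0.41 ± 0.08 and 0.21 ± 0.22 (SD, n = 3; exact two-sided permutation test, p = 0.3). The genotypes overlapped in all 3 measures, with derived dog 2 within the range of the ancestral dogs, and the adjusted p was 0.3 for each over 3 tests (exact permutation tests). At the stricter thresholds the differences were -0.59, -3.68 percentage points and -0.89, where derived dog 1, with 747 *E2F1* peaks left, had the lowest value of all dogs in each, and without it the first 2 differences were more than 3 times smaller and the third was above 0. With equal list sizes they were -0.18, -1.31 percentage points and -0.12, and derived dog 1 again had the lowest value of all dogs in each. In the first, derived dogs 2 and 3 then had 2.05 and 1.36 against an ancestral mean of 1.73. In the third they had 0.65 and 0.12 against 0.36. With all deposited peaks and each dog left out, the first difference ran from -0.45 without derived dog 2 to -0.11 without derived dog 1. The third ran from -0.32 to -0.10 without the same dogs.

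At the interval within intron 1 of *GTF2I* that the study tests, an *H3K27ac* peak between 2026 and 2213 bp wide lay over the site in each dog. *GTF2I* encodes the transcription factor TFII-I. The *E2F1* peak of ancestral dog 1 overlapped the interval, with its summit just outside the lower end, and this summit lay 833 bp from the lower edge of its *H3K27ac* peak and 273 bp from its centre. The summit of ancestral dog 3, within the interval, lay 1016 bp from the lower edge and 52.5 bp from the centre. These 2 summits were thus in the central part of peaks of the 2 to 5 kb class, 24.7% and 4.91% of the way from centre to edge. The *H3K27ac* peaks of the other 4 dogs at this place held no *E2F1* summit.

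Across chromosomes, *E2F1* and *H3K27ac* peak densities rose together. Chromosomes 9, 20 and 26 had the highest density of both marks. Chromosome 9 had 104 ± 35.1 *E2F1* and 83.6 ± 12.3 *H3K27ac* peaks per Mb, and chromosome 20 had 85.9 ± 26.3 and 71.3 ± 9.61 (SD, n = 6). On chromosome 26 the densities were 82.0 ± 23.0 and 67.0 ± 11 (SD, n = 6). The lowest *E2F1* densities were on chromosome 32 with 23.0 ± 4.25, chromosome 29 with 26.2 ± 4.25 and chromosome 36 with 29.1 ± 5.78 per Mb (SD, n = 6). The lowest *H3K27ac* densities were on chromosome 29 with 28.0 ± 3.97, chromosome 19 with 28.3 ± 4.33 and chromosome 22 with 30.4 ± 4.05 per Mb (SD, n = 6). Chromosome 29 was thus low in both marks, while chromosome 32 had 0.693 ± 0.191 and chromosome 9 1.28 ± 0.532 *E2F1* peaks per *H3K27ac* peak (SD, n = 6).

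Over the 38 chromosomes, Spearman's rho between the densities was 0.919, 0.902 and 0.926 (ancestral dogs 1, 2 and 3) and 0.877, 0.908 and 0.909 (derived dogs 1, 2 and 3). Pearson's r ran from 0.90 to 0.938. Derived dog 1 had the lowest value of both. These are descriptions, since the points of a dog share both libraries and their depth, and both densities of a chromosome share its base composition. Chromosome length was only weakly related to either density (with *E2F1* rho was 0.218 to 0.253 across dogs, with *H3K27ac* 0.169 to 0.202). The most *E2F1*-dense chromosome of a dog had between 3.40 and 6.76 times the density of the least dense one, a wider range than the 2.65 to 3.38 times of *H3K27ac*.

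**Figure D3:**
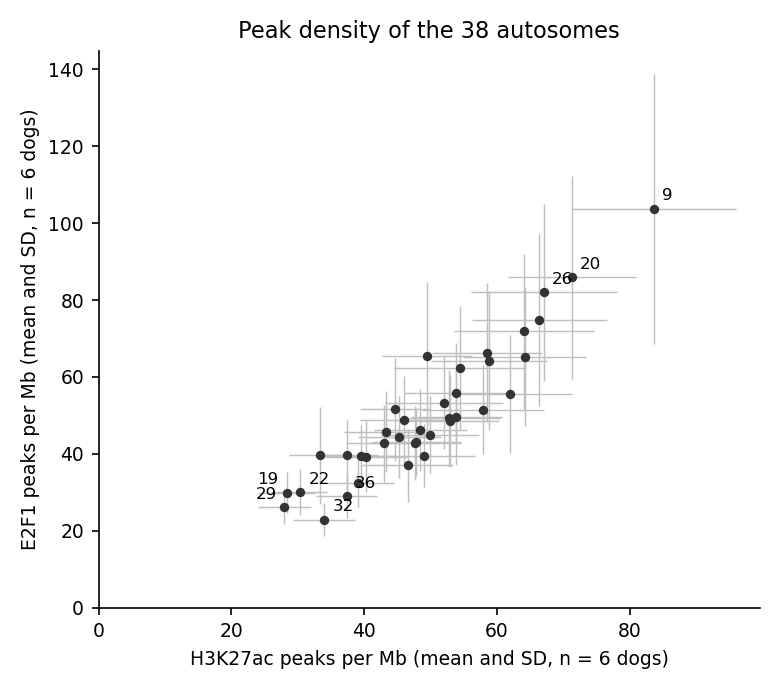
*E2F1* against *H3K27ac* peaks per Mb for the 38 autosomes, as means over 6 dogs with bars of 1 SD in both directions. The 3 highest and 3 lowest chromosomes of each mark are numbered, and chromosome 9 lies highest on both axes at 104 and 83.6 peaks per Mb.

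On chromosomes dense in *H3K27ac*, more summits lay inside peaks but the ratio to the covered share was lower. On chromosome 9, 43.2% ± 4.98 of summits were inside *H3K27ac* peaks that covered 24.3% ± 3.31 of it, a ratio of 1.80 ± 0.251 (SD, n = 6). On chromosome 29, 20.1% ± 4.35 were inside peaks that covered 4.90% ± 0.409, a ratio of 4.16 ± 1.05 (SD, n = 6). The highest ratio was that of chromosome 32, 4.48 ± 1.27 (SD, n = 6). Over the 38 chromosomes the rho between this ratio and *H3K27ac* density ran from -0.938 to -0.856 across dogs, and *H3K27ac* peaks enter both quantities. The rho between the share inside and the share covered ran from 0.824 to 0.944.

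In 1-Mb bins, of which 2182 lay whole within the autosomes, the densities were also related. Spearman's rho was 0.837, 0.804 and 0.836 (ancestral dogs 1, 2 and 3) and 0.725, 0.856 and 0.794 (derived dogs 1, 2 and 3). Pearson's r ran from 0.677 in derived dog 1 to 0.776 in derived dog 2. Bins of a dog share its libraries, and neighbouring bins share chromatin and base composition, so no p is given. Within single chromosomes the median rho ran from 0.680 to 0.838 across dogs. Every bin held an *E2F1* summit in each dog, while between 23 and 113 bins held no *H3K27ac* peak. At the stricter thresholds the mean rho was 0.514 over bins, with 0.187 in derived dog 1 and 0.414 to 0.707 in the other dogs.

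With the bins of a dog ordered by *H3K27ac* in 10 classes, from the poorest to the richest class, *E2F1* summits per bin rose from 0.258 ± 0.0744 to 2.2 ± 0.297 times the mean bin of the dog (SD, n = 6). By the ordering itself, *H3K27ac* spanned a wide range, from 1.90 ± 0.718 to 115 ± 13.5 peaks per bin (SD, n = 6). Summits per *H3K27ac* peak, whose denominator is the ordering variable, went from 7.97 ± 3.98 in the poorest class to 1.03 ± 0.319 in the fifth class, and were 1.02 ± 0.439 in the richest (SD, n = 6). Counting only summits outside *H3K27ac* peaks, a choice made after seeing the data, bins still rose from 0.379 ± 0.0828 to 1.66 ± 0.261 times the mean (SD, n = 6), with rho from 0.532 to 0.735. Of the top 10% of bins by *E2F1*, 49.5% ± 4.93 were also in the top 10% by *H3K27ac*, and 49.6% ± 5.46 the other way round (SD, n = 6).

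**Figure D4:**
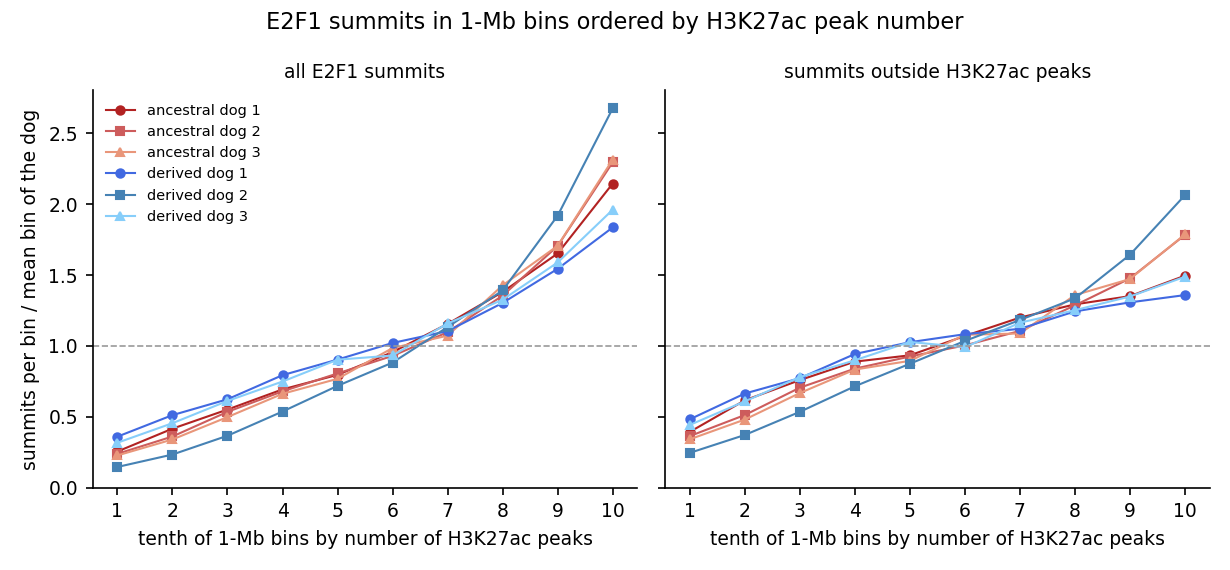
*E2F1* summits per 1-Mb bin, as a ratio to the mean bin of the dog, in 10 classes of bins ordered by the number of *H3K27ac* peaks from fewest to most, with 1 line per dog, all summits on the left and summits outside *H3K27ac* peaks on the right. The mean over dogs rises from 0.258 to 2.2 for all summits and from 0.379 to 1.66 for those outside.

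The 5 bins that ranked high in both marks in every dog lay on chromosomes 7, 18, 20 and 1 (coordinates on CanFam3.1). The first, chr7:41000001-42000000, held from 138 to 351 *E2F1* summits and from 125 to 156 *H3K27ac* peaks per dog. It was at or above the 99.175 percentile of bins in both marks in all 6 dogs. The neighbouring bins chr18:51000001-52000000 and chr18:52000001-53000000 held medians of 163.5 and 180 summits beside 124.5 and 138.5 *H3K27ac* peaks. The other 2 were chr20:50000001-51000000 and chr1:109000001-110000000. In these 5 bins *H3K27ac* covered between 39.5% and 44.3% of the sequence in the mean over dogs, and between 45% and 60.1% of summits were inside.

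Of the 2182 bins, 114 lay in the first and 114 in the last 3 Mb of a chromosome. The 5 bins with the greatest excess of *E2F1* over *H3K27ac* percentile were picked only among bins that held an *H3K27ac* peak in every dog. Of these 5, 3 were the first Mb of chromosomes 16, 17 and 18, and chr8:72000001-73000000 lay within the last 3 Mb of its chromosome. The first Mb of chromosome 16 held from 72 to 212 *E2F1* summits per dog and from 12 to 22 *H3K27ac* peaks, with 3.40% ± 3.02 of summits inside (SD, n = 6). The fifth, chr13:36000001-37000000, held from 53 to 168 summits and from 12 to 18 *H3K27ac* peaks. Over all chromosomes, the first 3 Mb held 1.24 ± 0.0310 times the *E2F1* summits of the mean bin and 0.970 ± 0.0106 times its *H3K27ac* peaks (SD, n = 6). The last 3 Mb held 1.32 ± 0.0693 and 0.919 ± 0.0321 times (SD, n = 6). The share of summits inside was 26.9% ± 4.95 and 23.6% ± 4.14 there, against 34.9% ± 5.49 in the remaining bins (SD, n = 6), and the ends were examined after the named bins were seen.

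Of the bins rich in *H3K27ac* and poor in *E2F1*, the most extreme, chr21:15000001-16000000, held from 72 to 134 *H3K27ac* peaks and from 16 to 24 *E2F1* summits per dog. Next came chr37:7000001-8000000, chr11:29000001-30000000, chr2:46000001-47000000 and chr5:44000001-45000000. In chr5:44000001-45000000, *H3K27ac* covered 24.5% ± 2.65 of the sequence and 53.9% ± 7.68 of its 22 to 41 summits were inside (SD, n = 6). Over all bins, the difference between *E2F1* and *H3K27ac* percentile was shared by the dogs, with rho from 0.671 to 0.807 over the 15 pairs of dogs. The same pairs gave 0.905 to 0.970 for *E2F1* alone and 0.951 to 0.982 for *H3K27ac* alone.

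Merged *H3K27ac* regions were also ranked by the number of *E2F1* summits in the dog with the fewest, a count that grows with the width of a region. The first, chr28:29485558-29607502, was 121945 bp long and held 31, 30 and 42 summits (ancestral dogs 1, 2 and 3) and 22, 46 and 32 (derived dogs 1, 2 and 3). *H3K27ac* peaks covered at least 117309 bp of it in each dog. The second, chr9:41982162-42158600, held from 20 to 63 summits, and its *H3K27ac* was split into 7 to 23 peaks depending on the dog. The others were chr5:15844104-15992547 with 20 to 36 summits, chr5:19124158-19207216 with 17 to 38 and chr20:49124097-49197910 with 15 to 38. Derived dog 2, which had the longest *E2F1* list, held the most summits in 4 of these 5 regions.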

How the data were processed

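*E2F1* and *H3K27ac* *ChIP-seq* of pons was analysed from the peak lists of 6 dogs. The authors removed duplicates by unique molecular identifier, aligned reads to CanFam3.1 with bowtie keeping multi-mapped reads, and ran macs2 for each dog on its own (version 2.2.0 in the processing notes), in narrow mode for *E2F1* and in broad mode for *H3K27ac*. Whether input libraries entered the calls is not given in the sources used here. For their comparison of genotypes the authors removed peak sites enriched in input, and no such removal was made here. The deposited score of macs2 was not used. The deposited fold enrichment over local background was compared within a list, and the −log10 q values of the authors also set classes and thresholds applied to every list. The deposited −log10 p values were not used.

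All deposited peaks on chromosomes 1 to 38 were used, which leaves out X and the mitochondrial sequence. Members and measures were chosen with earlier results of these data known. The autosome span, 2204 Mb, sums the highest peak end of each chromosome over the lists, with no stretch removed as unmappable. A summit was inside when it lay within an *H3K27ac* peak of the same dog, and *H3K27ac* peaks entered 1-Mb bins by their midpoint. *E2F1* and *H3K27ac* lists were paired because they come from the same animal. Measures were compared with exact two-sided sign-flip permutation tests over 6 dogs (64 sign assignments, Benjamini-Hochberg over 9 tests at a threshold of 0.05), and genotypes with exact permutation tests over 20 assignments. The measures of position, edge, flank and width class were tested on simulated data with even placement. Only the central part share and wide against narrow peaks were also checked against a planted effect. Named chromosomes were the 3 highest and 3 lowest by mean density of each mark. Named bins were 5 by their lowest percentile over marks and dogs, and 5 each by the mean difference of *E2F1* and *H3K27ac* percentile in both directions. Those with an excess of *E2F1* were picked only among bins that held an *H3K27ac* peak in every dog. Named regions were 5 by the lowest number of summits of any dog. Alternatives were 2 pairs of q thresholds, equal list sizes, peak midpoints, joined or filtered *H3K27ac* peaks, other windows, width classes and bin sizes, covered base pairs, pairing, and each dog left out. A CanFam3.1 sequence and annotation were not used here, so genes near peaks, E2F target genes, cell type markers of pons and motifs at summits were not analysed. Read depth is unknown from the lists and was not used, and a place without a peak has no value. Python 3.11.15 with numpy, pandas, scipy and matplotlib was used.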

Additional observations from a re-analysis of the deposited data

Results flagged for a closer look

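The X chromosome, which was left out of all comparisons, had a higher ratio than the mean of any autosome. *E2F1* summits on X fell inside *H3K27ac* peaks 5.25 ± 1.80 times as often as the covered share of X (SD, n = 6), with values of 4.25, 7.41 and 5.74 (ancestral dogs 1, 2 and 3) and 3.12, 7.17 and 3.81 (derived dogs 1, 2 and 3). On X, *H3K27ac* covered 4.75% ± 0.430 of the sequence and 24.8% ± 8.25 of summits were inside (SD, n = 6). Its densities of 20.4 ± 5.49 *E2F1* and 22.5 ± 2.11 *H3K27ac* peaks per Mb (SD, n = 6) lay below the means of each autosome. Autosomes with little *H3K27ac* also had high ratios, such as chromosome 32 with 4.48 ± 1.27 and chromosome 29 with 4.16 ± 1.05 at 4.90% covered (SD, n = 6), so the high ratio was not particular to X. These male dogs carry a single X, and the part of its copy number in the densities was not tested.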

How the results depend on the processing

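With each dog left out, every result kept its direction. The ranges of the log2 values were 1.46 to 1.60 for summits inside over the covered share, 0.45 to 0.52 for the edge step, 1.44 to 1.65 for the near flank against far, 0.27 to 0.37 for wide against narrow peaks, 0.0545 to 0.0733 for *E2F1* fold, 0.13 to 0.16 for *E2F1* width and 0.16 to 0.20 for *H3K27ac* fold. None of these passed the test with 5 dogs, since the smallest p is then 0.0625 in the exact test. Besides these, 111 values were recomputed under 16 other settings, and 86 of them counted as the same. For tested values this means that direction and side of the threshold were kept. For genotype differences it means direction alone, since their exact tests cannot give a p below 0.1, or 0.25 with the replicate number as block. The correlations have no threshold, and those counted as the same stayed within the SD between dogs of the main value. A further 8 correlations moved by more than this SD, all with means above 0. Of the other values, 12 lost the call, 3 gained it and 2 reversed. The values with *H3K27ac* peaks less than 1 kb apart joined are among the 86. Joining changed no list, since no list holds peaks that close. At the thresholds of the study the edge step was 0.32 and *E2F1* fold 0.0247, both no longer past the test, and the central part excess of 3.18 percentage points passed it. At the stricter thresholds, which kept between 747 and 6646 *E2F1* peaks, the edge step and wide against narrow reversed to -0.14 and -1.31, with 1.49 and -3.69 in derived dog 1 against -0.83 to 0.10 and -1.83 to 0.08 in the others. There, summits inside (2.39), near flank (3.65), *E2F1* fold (0.0453, with 0.198 in derived dog 1 and at most 0.0311 in the others), *E2F1* width (0.39) and *H3K27ac* fold (0.43) lost the call, and the Spearman correlation fell to 0.739 over chromosomes and 0.514 over bins, with 0.318 and 0.187 in derived dog 1. With equal list sizes the central part excess of 2.01 passed the test, wide against narrow (0.30) and *E2F1* fold (0.0538) did not, and the Spearman correlation over chromosomes was 0.881. With peak midpoints the central part excess was 1.29 and passed. The widest 20% against the narrowest 20% of peaks gave 0.22. The Spearman correlation over chromosomes was 0.949 for covered base pairs and 0.932 without the first and last 3 Mb, chosen after seeing the data. The Spearman correlation over bins was 0.727 with 250-kb bins, 0.874 with 5-Mb bins and 0.646 for outside summits alone, also chosen after seeing the data. Without the pairing by dog (no replicate block), *E2F1* fold (0.0654, p = 0.0649 in an exact permutation test) and width (0.15, p = 0.121) did not pass. With the replicate number as a block between genotypes, the differences of -0.24, -1.51 percentage points and -0.21 are the same by construction. Only p could move, and it was 0.25, 0.25 and 0.5 (exact sign flips of 3 pairs, smallest p 0.25). With each dog left out the differences ran from -0.45 to -0.11, from -2.26 to -1.06 percentage points and from -0.32 to -0.10. The replicate numbers name different dogs, and the correlations of same-numbered dogs' deviations over bins were -0.267 to 0.455 with *E2F1* and -0.329 to -0.0556 with *H3K27ac*. Dogs with different numbers gave -0.492 to 0.289 with *E2F1* and -0.128 to 0.364 with *H3K27ac*. The causes of these changes were not tested. Read depth is not in the lists and was not used here, so what it limits was not measured.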
